A study of Mus musculus with 4 samples.

Results

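The genes described here are 10 genes of excitation-contraction coupling and calcium handling in skeletal muscle, taken by symbol from the 32285 genes of the deposited feature table: Cacna1s, Cacna2d1, Ryr1, Ryr3, Atp2a1, Atp2a2, Sln, Mrln, Casq1 and Casq2. They were chosen for their roles, though earlier results of these data were known by then. Their unique molecular identifiers (UMIs, each standing for 1 captured transcript) were counted in 10X Genomics single-cell RNA-seq libraries of leg muscles from fetal mice at embryonic day 18.5, with 2 WT and 2 KO libraries. WT and KO were fetuses of heterozygous matings, genotyped from the tail and taken as littermates, and KO fetuses lacked the long noncoding RNA SYISL in every cell rather than in muscle alone. The comparison of KO with WT asked how the loss of SYISL changed fetal muscle cells. SYISL has no entry of that name in the feature table, so its loss was not checked in these libraries. The labels do not say how many fetuses went into a library, and p-values therefore measure the spread between libraries, which may be partly technical.

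In a muscle fiber, the membrane depolarises, the voltage sensor of the T-tubule (the dihydropyridine receptor) moves, and the ryanodine receptor of the sarcoplasmic reticulum opens and releases calcium onto the myofibrils. SERCA pumps then return calcium to the reticulum, where calsequestrin binds it, and small membrane peptides such as sarcolipin and myoregulin restrain the pump. Fetal and newborn muscle is known to hold several of these parts in immature forms, and smooth muscle, endothelium and fibroblasts use calcium stores of their own built from some of the same genes.

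The 4 libraries held 9528 to 11670 barcodes and 109653824 to 126257094 UMIs each. The study's limits on genes, UMIs and mitochondrial share left 36969 cells, 8177 to 10461 per library, with a median of 9118 to 11427 UMIs per cell. The study itself reported fewer cells after its filtering, and the reason for the difference was not tested. Any 2 libraries shared 15 to 27 kept barcodes, at most 0.330% of the smaller library. KO replicate 2 stood apart in sex-linked transcripts, with Xist at 1203 CPM and 4 Y-linked genes (Ddx3y, Eif2s3y, Kdm5d and Uty) at a summed 0.964 CPM, whereas the other libraries held at most 0.0533 CPM of Xist and 272 to 284 CPM of the Y-linked genes. Sex therefore cannot be told apart from what else is particular to that library. Levels are in CPM, the usual scaled count, for which a gene's UMIs were divided by those of all genes in the cells of 1 class and 1 library, and a mean ± SD is over the 4 libraries unless a genotype is named. The libraries read the 3′ ends of transcripts, so levels are compared between cells and not between genes. The 3′ ends of Cacna1s, Ryr3 and Atp2a1 overlap Gm37759, Aven and Rabep2 on the other strand, and whether the counting used the strand is not given in the sources used here.

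Clustering without the 10 genes and without 68 further calcium genes gave 10 classes named from marker genes. Fibro-adipogenic progenitor (FAP)-like cells were the most numerous at 16884, followed by 6732 myogenic-like cells, 1832 glial-like, 1744 smooth muscle or pericyte-like, 1412 chondrocyte-like, 1343 endothelial-like, 1274 tenocyte-like, 1115 macrophage-like, 286 mast-like and 214 neutrophil-like cells. Clusters of 3698 and 435 cells stayed unnamed, the larger of them because it carried tenocyte and FAP markers together, and the thresholds for naming were set after the clusters had been seen. The 11 myogenic markers summed to between 2843 and 3149 CPM per library in myogenic-like cells and to between 59.0 and 101 CPM in FAP-like cells. Myogenic-like cells were split into 3056 progenitor-like, 1834 cycling, 937 myoblast-like and 79 myotube-like cells, and 826 cells of no clear stage. The myotube-like cells were few, with 25 and 11 from WT and 13 and 30 from KO, and their median depth was 3985 and 4767 UMIs in WT but 11479 and 10089.5 UMIs in KO. They also held markers of other classes. Neutrophil markers summed to 1746 CPM in WT replicate 1 and chondrocyte markers to 680 CPM in KO replicate 2. Each of these lists summed to at most 13.6 CPM in the other libraries. FAP markers summed to 1121 and 286 CPM in WT and to 2818 and 1651 CPM in KO, so both KO libraries lay higher. In myoblast-like cells FAP markers summed to 260 to 455 CPM. Smooth muscle or pericyte markers summed to 1854 to 2358 CPM in the myotube-like cells, with the genotypes overlapping. The tissue was dissociated and passed through a cell strainer, so these cells are not a census of the muscle fibers. Because the classes were made from genes that move together with the 10 genes, levels are compared between classes without a test.

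**Figure D1:**
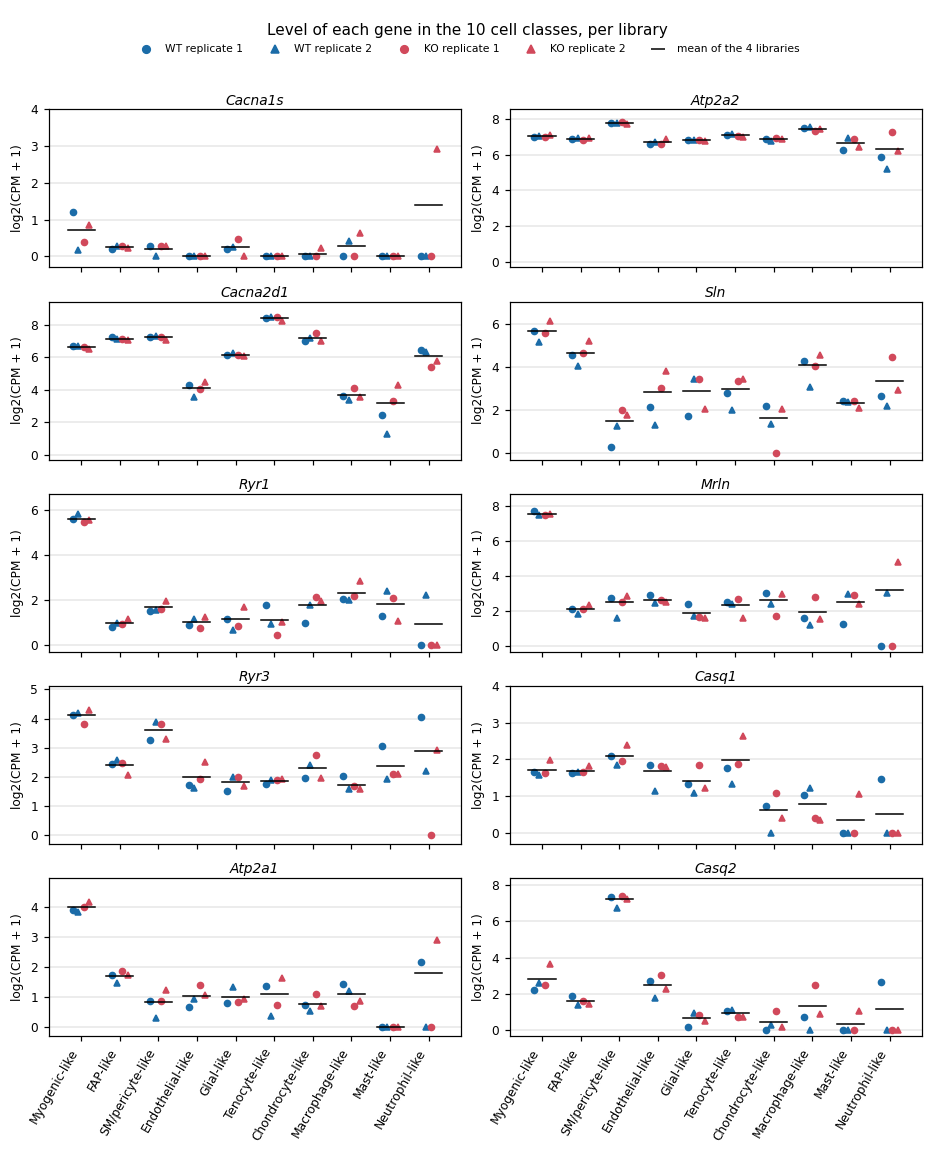
Level of each of the 10 genes in the 10 cell classes, as log2(CPM + 1) on the vertical axis. Each point is 1 library, and the black bar is the mean CPM of the 4 libraries on the same scale. Ryr1, Atp2a1 and Mrln stand highest in myogenic-like cells, Casq2 in smooth muscle or pericyte-like cells (145 ± 27.8 CPM) and Cacna2d1 in tenocyte-like cells (335 ± 27.2 CPM), whereas Atp2a2 is present in every class.

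**Figure D2:**
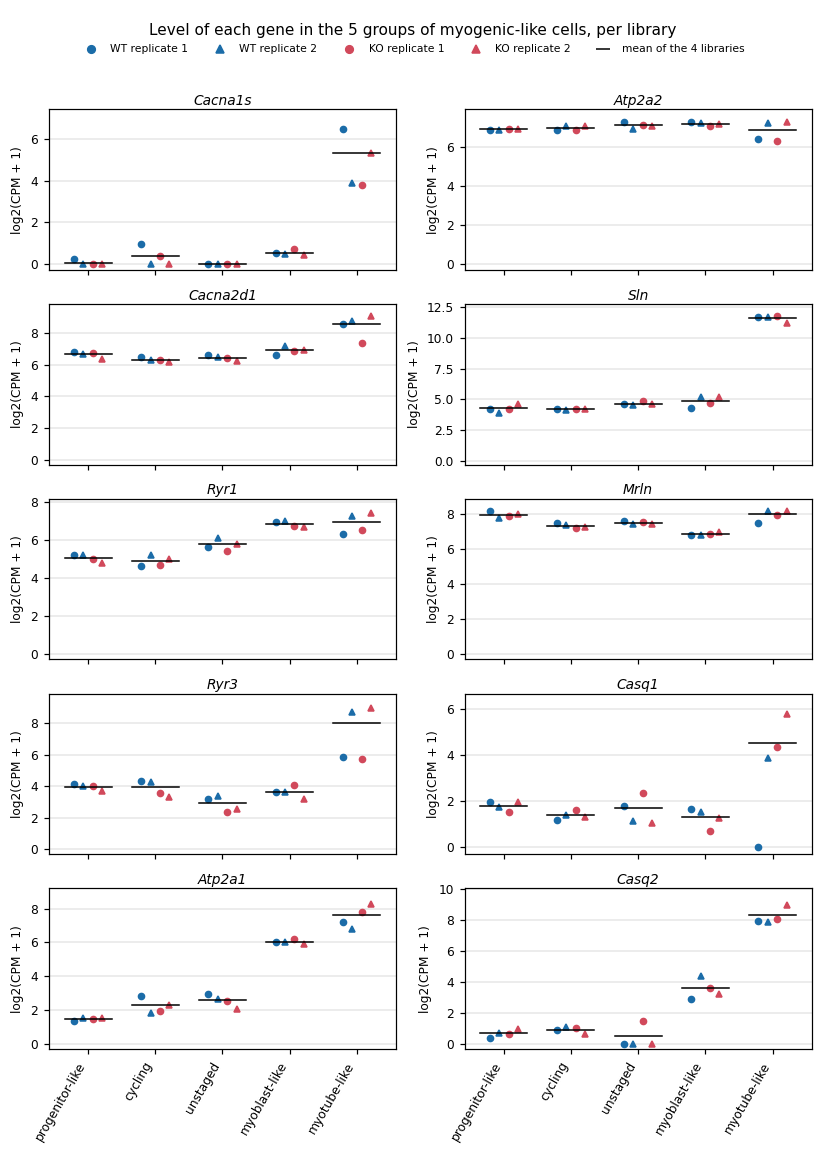
Level of each of the 10 genes in the 5 groups of myogenic-like cells, as log2(CPM + 1) on the vertical axis. Each point is 1 library, and the black bar is the mean CPM of the 4 libraries on the same scale. Sln reaches 3131 ± 495 CPM in the 79 myotube-like cells and stays at or below 36.2 CPM in every library elsewhere, Ryr1 and Atp2a1 stand higher in myoblast-like than in progenitor-like cells, and Mrln stands lower there.

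Cacna1s encodes the pore-forming subunit of the voltage sensor (ENSMUSG00000026407, GRCm38 chr1:136052750-136119822, plus strand). It was the most sparsely captured of the 10 genes, with 97 UMIs in all kept cells. Of these, 32 lay in the 79 myotube-like cells, where WT held 90.2 and 13.6 CPM and KO 13.0 and 38.9 CPM. Its mean did not pass 1.65 CPM in any other class or stage, and endothelial-like, tenocyte-like and mast-like cells held none, which allows up to 0.203, 0.232 and 0.922 CPM. The Cacna1s promoter is shown because this gene was the one most restricted to the myotube-like cells by share of its myogenic UMIs, 71.1%. Its window (RefSeq, GRCm38.p6, chr1:136052561-136052860, 5′ to 3′ on the plus strand) runs from 250 bases before to 50 bases after the annotated start. Capitals mark matches to 2 motifs known from muscle genes, the E-box CANNTG, bound by the MyoD family, and the MCAT element CATTCC, bound by TEAD factors.
Cacna1s promoter: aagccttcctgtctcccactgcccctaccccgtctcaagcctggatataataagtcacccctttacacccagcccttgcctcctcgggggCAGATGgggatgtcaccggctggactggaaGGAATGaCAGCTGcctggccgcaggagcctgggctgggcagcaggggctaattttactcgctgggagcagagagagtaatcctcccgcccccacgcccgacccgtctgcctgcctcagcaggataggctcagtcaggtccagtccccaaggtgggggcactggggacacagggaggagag
Both strands were searched for these motifs and for the MEF2 and CArG motifs, with positions counted from the start base as 0. The E-boxes began at positions -160 and -123 and the MCAT element at position -130, with no overlap between them. E-boxes are common, and 23756 of 32851 RefSeq windows of this length (72.3%) held one, against 14.7% for MCAT, 3.19% for MEF2 and 1.63% for CArG. Of the 10 genes, 7 had a window, and 5 of these held an E-box, 1 an MCAT element, 1 a MEF2 motif and none a CArG motif. A match is a run of letters and not a shown binding site. Windows of Ryr3, Atp2a2 and Sln were not analysed here.

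Cacna2d1 encodes the extracellular alpha-2/delta-1 subunit that accompanies voltage-gated calcium channels (ENSMUSG00000040118, chr5:15934691-16374511, plus strand). Unlike the pore subunit, it was spread over many cells, and 12.6% of its 53896 UMIs lay in myogenic-like cells. Tenocyte-like cells held 343 and 349 CPM in WT and 351 and 294 CPM in KO, and this range lay above that of every other named class. The unnamed cluster of 3698 cells with tenocyte and FAP markers held 228 to 293 CPM of Cacna2d1, on 9373 UMIs against 4335 in the tenocyte-like cells. At resolution 1 the tenocyte-like cells numbered 2297 in place of 1274, with 336 CPM of Cacna2d1. Smooth muscle or pericyte-like (148 ± 11.0 CPM), chondrocyte-like (143 ± 23.7 CPM) and FAP-like cells (140 ± 8.24 CPM) came next and overlapped in range. Myogenic-like cells (97.0 ± 4.96 CPM) and glial-like cells (69.6 ± 4.16 CPM) lay below them, and mast-like, macrophage-like and endothelial-like cells had means of 8.23, 11.9 and 16.4 CPM. Among myogenic-like cells the myotube-like cells were highest, at 374, 423, 163 and 535 CPM in WT replicates 1 and 2 and KO replicates 1 and 2, all above the 95.4 to 145 CPM of myoblast-like cells. Thinned to 2000 UMIs per cell, 41.8% of tenocyte-like cells, 21.5% of FAP-like cells and 16.1% of myogenic-like cells held a Cacna2d1 UMI, and unthinned the shares were 83.3%, 60.4% and 49.0%.

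Ryr1 encodes the calcium release channel of skeletal muscle (ENSMUSG00000030592, chr7:29003344-29125179, minus strand). Of its 3827 UMIs, 86.5% lay in myogenic-like cells, which held 46.5 and 55.2 CPM in WT and 42.0 and 45.8 CPM in KO. No other named class had a mean above 3.92 CPM, the mean of macrophage-like cells. Ryr1 was already present in progenitor-like cells, at 26.8 to 36.3 CPM, and myoblast-like cells held a mean of 124 CPM in WT (SD 2.81) and 103 CPM in KO (SD 3.69). The ratio of myoblast-like to progenitor-like cells was 3.37 to 3.74 in the 4 libraries. Myotube-like cells spread from 77.3 to 171 CPM around the myoblast-like level and did not differ from it beyond this spread. After thinning, 7.76% of myogenic-like cells and 0.158% of FAP-like cells held a Ryr1 UMI (31.8% and 0.979% unthinned), at median depths per library of 8971.5 to 11401 and 9138 to 12157 UMIs.

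Ryr3 encodes another ryanodine receptor, known from fetal and neonatal muscle and from smooth muscle (ENSMUSG00000057378, chr2:112631355-113217096, minus strand). Of its 2582 UMIs, 44.6% lay in myogenic-like cells, at 16.4 ± 2.41 CPM, and the smooth muscle or pericyte-like cells (11.1 ± 2.71 CPM) overlapped them in range. The next classes were neutrophil-like cells (6.45 CPM, 11 UMIs) and FAP-like cells (4.30 CPM). Ryr3 was uneven in the myotube-like cells, where WT held 58.0 and 423 CPM and KO 52.1 and 498 CPM. Replicate 1 was low and replicate 2 high in both genotypes, and the lowest of the 4 values still lay above all values of progenitor-like, cycling and myoblast-like cells, which ranged from 8.05 to 19.3 CPM.

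Atp2a1 encodes SERCA1, the calcium pump of fast fibers (ENSMUSG00000030730, chr7:126445858-126463108, minus strand). Progenitor-like cells held 1.59 to 1.87 CPM, close to the levels outside the myogenic-like cells, where no class mean passed 2.51 CPM. Myoblast-like cells held 63.8 and 63.4 CPM in WT and 71.4 and 59.5 CPM in KO, and the ratio to progenitor-like cells was 31.9 to 40.5 in the 4 libraries. Myotube-like cells held 148 and 109 CPM in WT and 221 and 304 CPM in KO, above the myoblast-like cells in every library. No other of the 10 genes with such a ratio in all 4 libraries reached a larger one, and the promoter is shown for that reason.
Atp2a1 promoter: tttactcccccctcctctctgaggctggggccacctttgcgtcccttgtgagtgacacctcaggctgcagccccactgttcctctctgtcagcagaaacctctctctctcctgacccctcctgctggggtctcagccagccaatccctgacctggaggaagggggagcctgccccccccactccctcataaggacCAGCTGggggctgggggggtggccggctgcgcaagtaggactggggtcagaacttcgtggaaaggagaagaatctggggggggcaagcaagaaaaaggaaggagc
This window (chr7:126463024-126463323, 5′ to 3′ on the minus strand) held 1 E-box, at position -55, marked in capitals, and none of the other motifs.

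Atp2a2 encodes SERCA2, the pump of slow and cardiac muscle and, in another splice form, of most other cells (ENSMUSG00000029467, chr5:122453513-122502225, minus strand). It was found in every class, with a mean of at least 79.6 CPM, and 18.3% of its 49738 UMIs lay in myogenic-like cells. Smooth muscle or pericyte-like cells held 218 and 215 CPM in WT and 222 and 207 CPM in KO, above every library of every other class, and 1.74 to 1.96 times the FAP-like level of the same library. Macrophage-like cells were next (174 ± 12.5 CPM), followed by tenocyte-like (135 ± 6.41 CPM) and myogenic-like cells (129 ± 4.13 CPM), which overlapped in range. Between myogenic stages it moved little: progenitor-like cells held 120 ± 3.00 CPM, myoblast-like cells 148 ± 7.83 CPM, and the range of myotube-like cells, 78.1 to 156 CPM, covered both. The 3′ counts do not separate its splice forms.

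Sln encodes sarcolipin, a peptide of the sarcoplasmic reticulum membrane that uncouples SERCA (ENSMUSG00000042045, chr9:53850164-53854560, plus strand). Its coding sequence is shown because it is short enough to print whole and because Sln set the myotube-like cells apart most, at 67.2 to 173 times the myoblast-like level in the 4 libraries, the largest ratio among the genes with one in each library. It lies in exon 2 of 2, at chr9:53853473-53853568 (GENCODE vM21, GRCm38, plus strand), and has 31 codons before the stop. Start and stop codons are in capitals.
Sln coding sequence: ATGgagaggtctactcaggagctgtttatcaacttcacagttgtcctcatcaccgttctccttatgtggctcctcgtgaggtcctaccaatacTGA
Myotube-like cells held 3260 and 3409 CPM in WT and 3455 and 2399 CPM in KO. Progenitor-like, cycling and myoblast-like cells held 18.4 ± 4.43, 17.3 ± 0.627 and 29.0 ± 8.44 CPM, and the range of progenitor-like cells overlapped both of the others. Thus 60.9% of the Sln UMIs of all myogenic-like cells came from 79 cells. These were uneven, as 20 of them held 68.0% of their Sln UMIs, and 68.4% of them held any, unthinned. Without the 79 cells, the myogenic-like level was 18.1 and 19.5 CPM in WT and 20.1 and 23.3 CPM in KO, in place of 49.9, 35.4, 47.7 and 69.8 CPM.

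Sln was also counted outside the myogenic-like cells, and 40.1% of its 9050 UMIs lay within them. FAP-like cells held 22.4 and 15.4 CPM in WT and 24.1 and 36.5 CPM in KO, and macrophage-like cells 16.0 ± 6.28 CPM, while no other named class had a mean above 9.06 CPM. After thinning, 4.15% of myogenic-like, 3.85% of FAP-like and 0.675% of glial-like cells held a Sln UMI (13.0%, 13.1% and 2.22% unthinned), so the share in myogenic-like cells as a whole was not read as above that in FAP-like cells. The 10 myotube markers Acta1, Ckm, Myh3, Myh8, Mylpf, Tnnc2, Tnnt3, Ttn, Neb and Myl1 moved with Sln from class to class. For every 100 UMIs of these markers there were 3.36 Sln UMIs in myotube-like cells, 4.04 in FAP-like, 4.08 in glial-like, 4.19 in tenocyte-like, 4.41 in macrophage-like and 5.38 in endothelial-like cells, against 1.54 in smooth muscle or pericyte-like and 1.09 in myoblast-like cells. A finer clustering set 628 of the FAP-like cells (3.72%) apart in a cluster led by Myoz2, Ckm and Acta1, and these cells held 47.3% of the FAP-like Sln UMIs and 48.6% of the FAP-like marker UMIs. Outside that cluster, which was examined after its genes had been seen, FAP-like cells held 12.9 and 10.8 CPM of Sln in WT and 14.4 and 16.0 CPM in KO. The part of muscle transcripts from other cells in these values was not tested.

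**Figure D3:**
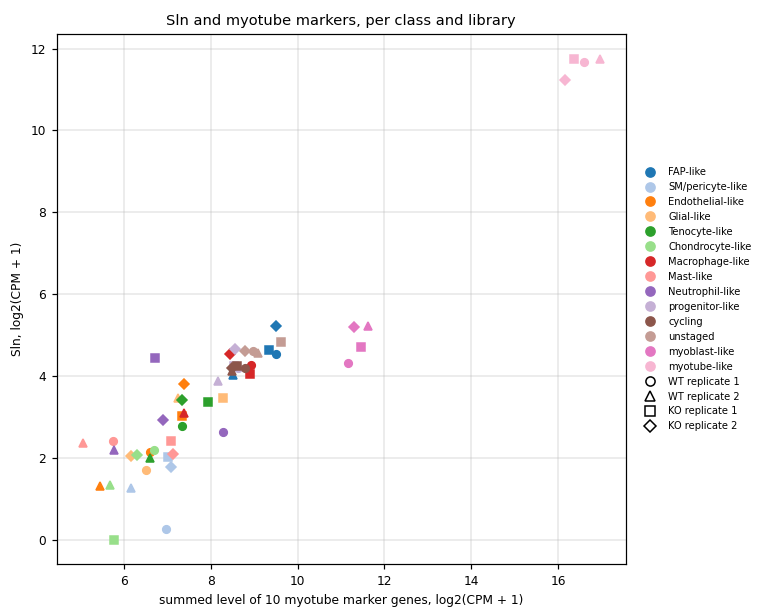
Sln against the summed level of 10 myotube marker genes in 9 other classes and 5 groups of myogenic-like cells, both as log2(CPM + 1). Colors are classes and shapes are the 4 libraries. The myotube-like cells stand alone at the upper right, with 73128 to 127857 CPM of markers, and all other groups lie below them. Not all of these follow 1 slope. Myoblast-like cells held 18.8 to 36.2 CPM of Sln on 2272 to 3135 CPM of markers. FAP-like cells held 15.4 to 36.5 CPM of Sln on 363 to 724 CPM of markers.

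Mrln encodes myoregulin, another peptide inhibitor of SERCA (ENSMUSG00000019933, chr10:70204664-70219711, plus strand). Its coding sequence is shown beside that of Sln as the other small pump regulator. It lies in exon 3 of 3, at chr10:70219496-70219636 (GENCODE vM21, GRCm38, plus strand), and has 46 codons before the stop.
Mrln coding sequence: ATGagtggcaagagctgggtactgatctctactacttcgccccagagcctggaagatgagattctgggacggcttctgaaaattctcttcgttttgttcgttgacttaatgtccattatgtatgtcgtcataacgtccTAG
Mrln differed from Sln in where it was found. Progenitor-like cells held 278 and 218 CPM in WT and 230 and 249 CPM in KO, whereas myoblast-like cells held 107 and 109 CPM in WT and 114 and 120 CPM in KO. The level in progenitor-like cells was 2.00 to 2.59 times that in myoblast-like cells in the 4 libraries, and cycling cells (156 ± 12.5 CPM) lay between them. Myotube-like cells, at 174 to 286 CPM, overlapped the progenitor-like cells and stood above the myoblast-like cells in every library. Myogenic-like cells held 88.6% of its 14667 UMIs, and no other named class passed a mean of 8.37 CPM. After thinning, 39.1% of progenitor-like, 19.1% of myoblast-like and 29.4% of myotube-like cells held a Mrln UMI, against 0.660% of FAP-like and 0.309% of glial-like cells. The unthinned shares were 80.8%, 64.4%, 68.9%, 3.16% and 1.74%. Of the genes with at least 20 CPM in progenitor-like cells, Mrln alone was lower in myoblast-like cells of every library, and its promoter is shown for that pattern.
Mrln promoter: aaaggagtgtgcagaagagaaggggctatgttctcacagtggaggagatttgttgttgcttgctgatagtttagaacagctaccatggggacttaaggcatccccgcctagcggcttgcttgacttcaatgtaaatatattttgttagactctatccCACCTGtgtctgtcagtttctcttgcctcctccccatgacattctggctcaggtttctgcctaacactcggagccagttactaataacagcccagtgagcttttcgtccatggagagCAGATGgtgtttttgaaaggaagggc
This window (chr10:70204414-70204713, plus strand) held 2 E-boxes, at positions -93 and 24, marked in capitals, and none of the other motifs.

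Casq1 encodes the calsequestrin of fast fibers (ENSMUSG00000007122, chr1:172209894-172219868, minus strand). It was scarce, and 25 of its 882 UMIs lay in myotube-like cells. WT replicate 1 held none there, which allows up to 19.3 CPM in that library, and the other libraries held 13.6, 19.5 and 54.5 CPM. In every other class and stage its mean was at or below 3.24 CPM, at much the same level in myogenic-like (2.29 ± 0.443 CPM) and FAP-like cells (2.21 ± 0.207 CPM), so no expression was read from it there.

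Casq2 encodes the cardiac calsequestrin, which is known from slow and developing skeletal muscle and from smooth muscle as well (ENSMUSG00000027861, chr3:102086415-102146514, plus strand). Most of it was outside the myogenic-like cells, which held 12.3% of its 3682 UMIs. Smooth muscle or pericyte-like cells held 160 and 105 CPM in WT and 167 and 145 CPM in KO, 60.1 to 84.6 times the FAP-like level of the same library. Myotube-like cells held 238 and 232 CPM in WT and 260 and 498 CPM in KO, 11.8 to 59.3 times the myoblast-like level of 11.4 ± 5.81 CPM, and these 79 cells held 63.3% of the Casq2 UMIs of all myogenic-like cells. The remaining classes had means of at most 4.73 CPM. After thinning, 33.8% of myotube-like and 20.6% of smooth muscle or pericyte-like cells held a Casq2 UMI, against 0.344% of FAP-like cells (58.4%, 48.8% and 2.06% unthinned). The promoter is shown because Casq2 was high in 2 unlike groups of muscle cells, the myotube-like and the smooth muscle or pericyte-like cells.
Casq2 promoter: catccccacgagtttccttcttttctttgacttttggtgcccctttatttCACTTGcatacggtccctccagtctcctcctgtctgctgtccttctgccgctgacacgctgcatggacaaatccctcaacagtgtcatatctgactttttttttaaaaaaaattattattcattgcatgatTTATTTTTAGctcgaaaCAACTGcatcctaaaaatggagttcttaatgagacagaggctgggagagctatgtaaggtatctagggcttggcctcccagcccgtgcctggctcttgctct
This window (chr3:102086165-102086464, plus strand) held E-boxes at positions -200 and -52 and a MEF2 motif at position -69, all in capitals. It was the one window of the 7 with a MEF2 motif.

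Counted together in cells thinned to 2000 UMIs, a myotube-like cell held UMIs of 2.54 of the 10 genes on average, and 36.7% of these cells held 3 or more. The mean was 0.960 in myoblast-like, 0.889 in progenitor-like and 0.719 in cycling cells, and 0.481 in FAP-like cells. Smooth muscle or pericyte-like cells (0.804) and tenocyte-like cells (0.684) came closest to the myogenic-like cells (0.860). Of the 10 genes, Atp2a2 and Cacna2d1 were found most often in smooth muscle or pericyte-like and tenocyte-like cells, and Casq2 also in the former. The 10 genes did not share 1 pattern over the 14 classes, stages and groups compared. No minimum of cells was set for these, and the neutrophil-like and myotube-like cells were among them. Among 12819 genes, the profile most like that of Atp2a1 was Tnni1 (Pearson r 0.986), of Sln was Mylpf (0.976) and of Cacna1s was Myl2 (0.977), all genes of the contractile apparatus. Ryr1 was closest to Ank1 (0.975) and had Chrna1, the acetylcholine receptor subunit of the endplate, among its nearest 3. Mrln was closest to Cdh15 (0.987), the M-cadherin gene of satellite cells and myoblasts, Casq2 to Fbxl22 (0.939) and Hrc (0.939), which encodes a histidine-rich protein of the sarcoplasmic reticulum, and Ryr3 to Gm47843 (0.929). For Cacna2d1, Casq1 and Atp2a2 the nearest were Meg3 (0.894), Ndufaf5 (0.965) and Cog7 (0.877). These correlations are over averages of groups that share libraries, and a single extreme group such as the myotube-like cells can set them. Mylpf, Chrna1 and Cdh15 were themselves on the marker lists that named these groups.

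KO was compared with WT in the summed UMIs of each class, with edgeR's quasi-likelihood test and Benjamini-Hochberg adjustment over all genes tested at 0.05. In myogenic-like cells 0 of the 10 genes passed, as did 0% of the 14713 genes tested, and at an unadjusted p under 0.05 there were 2 of the 10, Sln and Casq2, against 3.60% of all genes. DESeq2 gave 0 of the 10 at either threshold. The median log2 fold change was 0.01 over the 10 genes and 0.0015 over all genes tested. Both KO values exceeded both WT values for Atp2a1 and below them for Cacna2d1 and Ryr1, 3 of 10 genes, in a comparison where 33.7% of all genes did not overlap between the genotypes.

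Of the voltage sensor genes, Cacna2d1 held 101 and 101 CPM in WT and 96.0 and 90.4 CPM in KO myogenic-like cells, a log2 fold change of -0.07 (edgeR adjusted p = 0.966, SE 0.07), and Cacna1s had -0.32 (SE 0.83, edgeR adjusted p = 0.977) on 45 UMIs. Ryr1 had -0.17 (SE 0.10, edgeR adjusted p = 0.963), and Ryr3 had -0.03 (SE 0.17, edgeR adjusted p = 0.988). Of the pumps, Atp2a1 held 14.2 and 13.4 CPM in WT and 15.3 and 17.1 CPM in KO, a log2 fold change of 0.27 (edgeR adjusted p = 0.963, SE 0.12), and Atp2a2 had 0.05 (SE 0.08, edgeR adjusted p = 0.967). Mrln had -0.04 (SE 0.09, edgeR adjusted p = 0.972). Sln had 0.51 (SE 0.21, edgeR adjusted p = 0.963), with the WT range of 35.4 to 49.9 CPM overlapping the KO range of 47.7 to 69.8 CPM, and it was 0.19 without KO replicate 2 and 0.79 without WT replicate 1. Casq1 had 0.33 (SE 0.28, edgeR adjusted p = 0.963). Casq2 had 0.93 (SE 0.40, edgeR adjusted p = 0.963), with 3.72 and 5.03 CPM in WT and 4.61 and 11.5 CPM in KO, so the estimate rested on KO replicate 2, and without it the log2 fold change was 0.10. For both Sln and Casq2 most myogenic UMIs came from the myotube-like cells, of which KO replicate 2 held the most, 30.

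**Figure D4:**
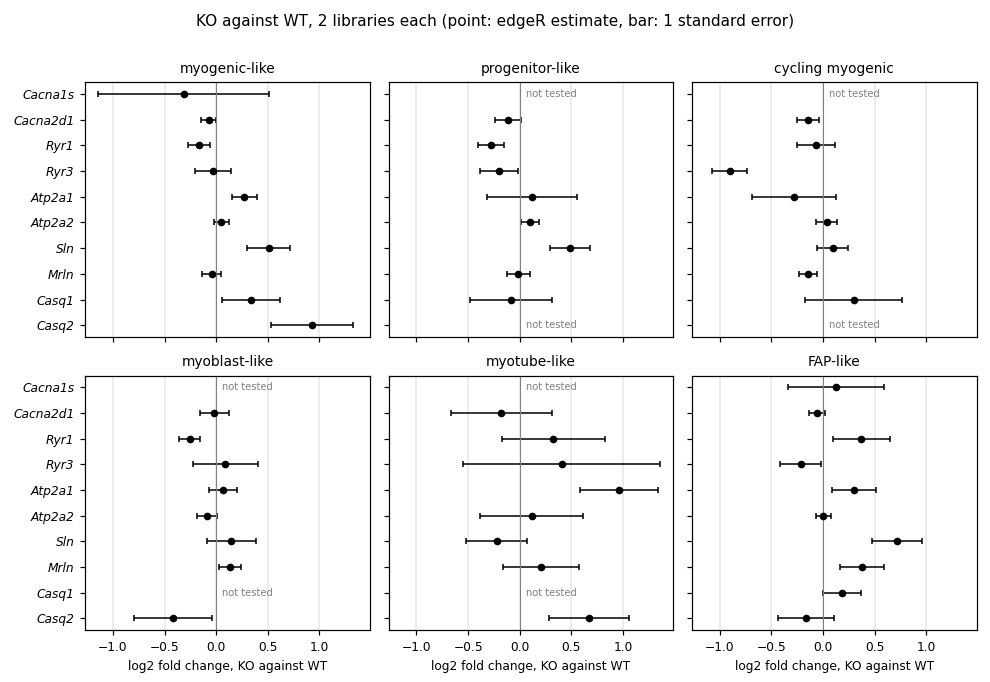
log2 fold change of KO against WT for each of the 10 genes in myogenic-like cells, 4 of their stages and FAP-like cells. Points are edgeR estimates from 2 libraries per genotype, bars are 1 standard error, and genes under the expression filter are marked as not tested. No estimate passed the adjusted threshold of 0.05, and the bars are widest in the 79 myotube-like cells and for the sparse Cacna1s.

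Within the stages, 0 of the genes tested passed in any comparison. In progenitor-like cells 8 of the 10 were tested, and 2 had an unadjusted p under 0.05 (0% and 4.09% of all genes at the adjusted and unadjusted thresholds). Ryr1 held 36.3 and 35.9 CPM in WT and 30.8 and 26.8 CPM in KO, a log2 fold change of -0.28 (edgeR adjusted p = 0.972, SE 0.13), and Sln 17.2 and 13.8 CPM in WT and 18.1 and 24.4 CPM in KO, 0.49 (SE 0.19, edgeR adjusted p = 0.972). In myoblast-like cells 1 of 8 had an unadjusted p under 0.05 (0% and 5.08% of all genes), Ryr1 again, at -0.26 (SE 0.10, edgeR adjusted p = 0.957). Cacna2d1, Atp2a2 and Mrln in progenitor-like cells had -0.11 (SE 0.12), 0.10 (SE 0.09) and -0.01 (SE 0.11). With KO replicate 1 left out, where the lone KO library is assumed to vary like the WT libraries, Sln had an edgeR adjusted p of 0.0345 in progenitor-like cells, and 91 genes passed in all, against 0 with every library. In myoblast-like cells Atp2a1 had 0.06 (SE 0.14), Atp2a2 -0.09 (SE 0.10), Cacna2d1 -0.02 (SE 0.14), Mrln 0.14 (SE 0.11) and Sln 0.15 (SE 0.24), in cells where 34.1% of all genes did not overlap between the genotypes.

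In cycling myogenic cells 1 of 8 genes had an unadjusted p under 0.05 (0% and 3.97% of all genes). This was Ryr3, with 19.3 and 18.8 CPM in WT and 10.8 and 9.11 CPM in KO, so that both KO values were under both WT values, where 33.3% of all genes did not overlap between the genotypes. Its log2 fold change was -0.91 (SE 0.17, unadjusted p = 3.10e-04, edgeR adjusted p = 0.986), on 347 UMIs, and it also had an unadjusted DESeq2 p under 0.05. With KO replicate 1 left out the edgeR adjusted p was 0.00293, with the lone KO library assumed to vary like the others and 154 genes passing in all against 0, and with any other library left out the adjusted p stayed above 0.05. In progenitor-like cells Ryr3 held 16.9 and 15.3 CPM in WT and 15.3 and 11.8 CPM in KO, and in myoblast-like cells 11.6 and 11.3 CPM in WT and 15.8 and 8.05 CPM in KO. The difference between cycling cells and these stages was not tested. Cacna2d1, Ryr1, Atp2a2 and Mrln had -0.15 (SE 0.11), -0.07 (SE 0.18), 0.04 (SE 0.10) and -0.15 (SE 0.09) in cycling cells.

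In the myotube-like cells 8 of the 10 genes passed the expression filter and 1, Atp2a1, had an unadjusted p under 0.05 (0% and 8.29% of the 2279 genes tested). Atp2a1 had a log2 fold change of 0.96 (edgeR adjusted p = 0.536, SE 0.38) and lay higher in both KO libraries. Casq2 had 0.67 (SE 0.39, edgeR adjusted p = 0.669) and was the other tested gene with both KO libraries above both WT libraries. This made 2 of 8 genes, where 39.2% of all genes did not overlap. Casq1, which was under the filter, held 0 and 13.6 CPM in WT and 19.5 and 54.5 CPM in KO. The remaining estimates were within 1 standard error of 0: Ryr3 0.41 (SE 0.96), Ryr1 0.33 (SE 0.50), Sln -0.22 (SE 0.30), Mrln 0.21 (SE 0.37), Cacna2d1 -0.18 (SE 0.49) and Atp2a2 0.12 (SE 0.50). Ryr3 turned on single libraries, from -2.13 without KO replicate 2 to 2.29 without WT replicate 2 (edgeR adjusted p = 0.00621, with 36 genes passing in all against 0 and the lone WT library assumed to vary like the KO libraries). The median over the 8 genes was 0.27, against 0.04 over all genes tested. In these cells the KO libraries held 153680 and 385216 UMIs and the WT libraries 155205 and 73340, and of the 10 myotube markers 5 lay lower and 1 higher in both KO libraries. The summed FAP markers lay higher in both KO libraries, at 2818 and 1651 CPM against 1121 and 286 CPM in WT. The part of this uneven depth and makeup in the differences of Atp2a1 and Casq2 was not tested. A change in cell makeup and a change within cells cannot be told apart in a sum of so few cells.

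The share of myogenic-like cells with a UMI of any of the 10 genes, after thinning to 2000 UMIs, stood at 62.2% and 61.7% for WT and 60.5% and 59.9% for KO. The mean was 62.0% ± 0.380 in WT and 60.2% ± 0.407 in KO (SD over 2 libraries each), a difference of -1.75 percentage points (exact two-sided permutation test, p = 0.333, the smallest that 2 against 2 libraries can give). Thinning left out 2, 4, 3 and 6 cells of the 4 libraries. Without thinning the shares were 95.7% to 97.3%.

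Outside the myogenic-like cells, 0 of the genes tested passed in any class. FAP-like cells allowed all 10 to be tested, of which 1 had an unadjusted p under 0.05 (0% and 3.01% of all genes): Sln, at 0.72 (SE 0.24, edgeR adjusted p = 0.995). Cacna2d1 had -0.06 (SE 0.08) and Atp2a2 0.00 (SE 0.07) there. Sln was also the gene under 0.05 unadjusted in smooth muscle or pericyte-like cells (1 of 7, with 0.143% and 5.36% of all genes), endothelial-like cells (1 of 5, with 0.0170% and 3.59%) and tenocyte-like cells (1 of 4, with 0.0173% and 5.16%). Its log2 fold changes there were 1.83 (SE 0.63), 1.99 (SE 0.46) and 1.11 (SE 0.36), with edgeR adjusted p of 0.711, 0.612 and 0.857, on 33, 95 and 88 UMIs. With a library left out they ranged from 0.98 (without WT replicate 1) to 3.61 (without WT replicate 2) in smooth muscle or pericyte-like cells and from 0.72 (without WT replicate 2) to 1.70 (without WT replicate 1) in tenocyte-like cells, and Sln in FAP-like cells from 0.38 (without KO replicate 2) to 1.02 (without WT replicate 1). In endothelial-like cells Sln held 2.48 ± 1.39 CPM in WT and 10.1 ± 4.06 CPM in KO (SD, n = 2 each), and 77.9% of its UMIs lay in 20 of the 1343 cells. It passed the threshold with KO replicate 1 left out (edgeR adjusted p = 2.98e-04), where 143 genes passed in all and the lone KO library is assumed to vary like the WT libraries. It also passed with no filter on low genes (edgeR adjusted p = 0.0124), where 49 genes passed, against 2 in the filtered fit with every library. The 10 myotube markers moved the same way there, summing to 95.1 and 42.1 CPM in WT and 160 and 166 CPM in KO, with 8 of the 10 higher in both KO libraries and none at 0. In smooth muscle or pericyte-like and in tenocyte-like cells 6 of the 10 markers did so, and in FAP-like cells 2 of the 10. Of all genes tested, 30.5%, 33.9%, 34.4% and 31.1% did not overlap between the genotypes, in either direction, in these classes in that order. The part of muscle transcripts in the Sln differences was not tested.

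Casq2 in smooth muscle or pericyte-like cells had a log2 fold change of 0.24 (edgeR adjusted p = 0.975, SE 0.14), with WT at 160 and 105 CPM and KO at 167 and 145 CPM, so the genotypes overlapped. Without WT replicate 1 it was 0.59 (edgeR adjusted p = 3.72e-04), with 144 genes passing in all against 18 and the lone WT library assumed to vary like the KO libraries, and without WT replicate 2 it was -0.03. Cacna2d1 and Atp2a2 in these cells had -0.13 (SE 0.09) and 0.00 (SE 0.08). In tenocyte-like cells, where it was highest, Cacna2d1 had -0.06 (SE 0.10), and in glial-like and chondrocyte-like cells -0.11 (SE 0.10) and 0.13 (SE 0.16). Atp2a2 had -0.13 (SE 0.11) in macrophage-like, 0.09 (SE 0.12) in endothelial-like, -0.02 (SE 0.09) in glial-like, -0.07 (SE 0.10) in tenocyte-like, 0.07 (SE 0.13) in chondrocyte-like and 0.04 (SE 0.26) in mast-like cells. None of 5 genes tested in glial-like cells (0% and 3.66% of all genes), of 6 in chondrocyte-like cells (0% and 2.78%), of 4 in macrophage-like cells (0% and 4.20%) and of 1 in mast-like cells (0.0982% and 6.86%) had an unadjusted p under 0.05 in edgeR or DESeq2. Neutrophil-like cells had 25 cells in each KO library and were not tested.

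Whether the KO effect differed between classes was tested by an interaction term. Between myogenic-like and FAP-like cells 0 of 10 genes passed (0% of 17899 genes), and 3 had an unadjusted p under 0.05, where 2.97% of all genes did. These were Mrln, -0.43 (SE 0.12), Ryr1, -0.55 (SE 0.20), and Sln, -0.22 (SE 0.09), each with an edgeR adjusted p of 1.00. The FAP-like levels of Mrln and Ryr1 in this contrast were only 3.39 and 0.960 CPM. Between myoblast-like and progenitor-like cells 0 of 9 genes passed (0.00810% of 12345 genes), and 0 had an unadjusted p under 0.05 (3.87% of all genes). With DESeq2 the unadjusted count was 1, Mrln, in the former and 0 in the latter.

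Of 68 further genes of the pathway, 61 were tested in myogenic-like cells, 0 passed the adjusted threshold in this or any other comparison, and 3 higher and 1 lower in KO had an unadjusted p under 0.05, where 3.60% of all genes did. The smallest p-values belonged to Trdn, which encodes triadin, the anchor of calsequestrin at the release channel, with 1.25 (SE 0.42), to Atp2b4, a calcium pump of the plasma membrane, with -0.27 (SE 0.09), and to Cacnb2, a beta subunit of voltage-gated calcium channels, with 0.36 (SE 0.13), each with an edgeR adjusted p of 0.963. Trdn held 2.21 and 2.61 CPM in WT and 3.14 and 7.92 CPM in KO, KO replicate 2 again being the high library. The median log2 fold change of the tested genes was 0.05 in myogenic-like cells. In myotube-like cells the highest of the 68 were Cav3, the muscle caveolin (681 ± 89.9 CPM), Bin1, which shapes T-tubules (636 ± 117 CPM), Cacng1, the gamma subunit of the voltage sensor (344 ± 51.7 CPM), and Fkbp1a, which binds the ryanodine receptor (279 ± 46.0 CPM). Of the voltage sensor and its partners 3 of 13 could be tested in these cells, of the release channel partners 8 of 15, of the triad genes 7 of 12, and of the further pumps and their regulators 1 of 9. This was Atp2b1, a calcium pump of the plasma membrane, with 1.56 (SE 0.67, unadjusted p = 0.0440, edgeR adjusted p = 0.590), named after its value was seen.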

How the data were processed

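The authors deposited filtered 10x matrices of raw UMI counts (Chromium Single Cell 3′ v3), made with Cell Ranger 7.2.0 on mm10 according to the submitters' processing notes, 1 per library. Intron counting is not given in the sources used here. The 10 genes and all gene lists were chosen with earlier results of these data known.

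Following the study's limits, a cell needed 1000 to 6000 genes, 1000 to 25000 UMIs and a mitochondrial share below 8.0%. Counts were scaled to 10000 per cell and logged, 3000 variable genes without the 10 genes and the 68 pathway genes gave 30 principal components, and 20 neighbours gave Leiden clusters at resolution 0.3 (scanpy 1.11.5, no batch correction). Stages came from clustering the myogenic-like cells again. A cluster took a name when at least 3 markers and 40% of a fixed list stood at least 2-fold above all other cells. Each such marker had to be found in at least 10% of the cluster's cells. FAP-like clusters needed 6 FAP markers at 25% of their highest level. A cluster stayed unnamed where another list came close, where it also met the FAP rule, or where its 10 leading genes favoured another list. Stages needed at least 3 stage markers 1.5-fold above the other myogenic-like cells. These thresholds were set after the clusters and their marker scores had been seen, while the marker lists were written earlier. Scrublet marked 1.65% to 2.56% of cells per library as doublets, which were kept, and removed in an alternative.

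UMIs were summed per library and class, the library being the replicate, and KO was compared with WT by edgeR 4.0.16 (quasi-likelihood, TMM, filterByExpr, Benjamini-Hochberg over all genes tested, threshold 0.05) in every class and stage with at least 50 cells per library and in the myotube-like cells. Members with at least 20 CPM are named in every class, and all tested members in myogenic-like and myotube-like cells. Ryr3 in cycling cells lay under this level and was named after its value was seen. So was Sln in progenitor-like, smooth muscle or pericyte-like, endothelial-like and tenocyte-like cells. Shares are of cells thinned to 2000 UMIs. The edgeR fit was tried on simulated counts for the myogenic-like and myotube-like cells only. The other classes, DESeq2, the interaction fits and the further alternatives were not tried in this way. Alternatives were DESeq2 1.42.0, size factors in place of TMM, no gene filter, the replicate number as a block, each library left out, resolution 1, a looser cell filter, the 10 genes kept in clustering, and other thinning depths. Coordinates are from GENCODE vM21 and promoter windows from RefSeq (GRCm38.p6).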

Additional observations from a re-analysis of the deposited data

Results flagged for a closer look

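For Mrln, the KO and WT libraries separated in opposite directions in 2 groups of myogenic-like cells. In cycling myogenic cells both KO libraries (143 and 150 CPM) held less than both WT libraries (172 and 159 CPM), with a log2 fold change of -0.15 (edgeR adjusted p = 0.986, SE 0.09). In myoblast-like cells both KO libraries (114 and 120 CPM) held more than both WT libraries (107 and 109 CPM), with a log2 fold change of 0.14 (edgeR adjusted p = 0.988, SE 0.11). Of all genes tested, 33.3% and 34.1% did not overlap between the genotypes in these cells. Neither passed 0.05, adjusted or unadjusted, and the difference between the groups, -0.28 on the log2 scale, was not tested.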

How the results depend on the processing

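Of 178 alternative counts of the 10 genes passing the threshold, 6 were not 0. Without any filter on low genes 1 gene, Sln, passed in endothelial-like cells. With each library left out in turn the count ranged from 0 to 1 in progenitor-like, cycling, myotube-like, smooth muscle or pericyte-like and endothelial-like cells. In the fits with 1 passing, all genes passing rose from 0 to 91, 154 and 36, from 18 to 144 and from 2 to 143 in that order. With the replicate number as a block (replicate block) 0 of the 10 passed in all 13 comparisons, while all genes passing rose to 149 in smooth muscle or pericyte-like cells. Deviations of same-numbered WT and KO libraries correlated at r 0.0150 to 0.176 over genes. The labels do not say that a number marks a litter or batch, and whether one is shared was not tested. The share of myogenic-like cells with a UMI of any of the 10 genes differed by -1.01 percentage points thinned to 1000 UMIs, by -0.646 without thinning and by -2.04 to -1.47 with a library left out.

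Of 612 alternative values of the 51 named log2 fold changes, 58 had the other sign, and the cause was not tested. Among the 58, 29 had moved from the main value by more than 1 SE. With the looser cell filter the values of the other sign were, in myogenic-like cells, Cacna1s 0.54, Cacna2d1 0.025 and Ryr3 0.15, in myoblast-like cells Cacna2d1 0.027, in myotube-like cells Cacna2d1 0.39 and Mrln -0.023, and Atp2a2 in FAP-like (-0.00092), glial-like (0.032) and tenocyte-like cells (0.028). At resolution 1 they were Mrln 0.028 in progenitor-like cells, Cacna2d1 0.062 in myoblast-like cells, Atp2a2 -0.048 and Sln 0.060 in myotube-like cells, Atp2a2 0.0080 in tenocyte-like cells and Cacna2d1 -0.071 in chondrocyte-like cells. Mrln in progenitor-like cells was 0.00058 with no gene filter, Atp2a2 in myotube-like cells -0.011 with DESeq2 and -0.052 with the replicate block, and Cacna2d1 in chondrocyte-like cells -0.023 with the 10 genes kept in clustering.

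With each library left out in turn, these log2 fold changes crossed 0. In myogenic-like cells Cacna1s ranged from -1.18 to 2.14, Ryr3 from -0.33 to 0.23, Atp2a2 from -0.020 to 0.12 and Mrln from -0.16 to 0.092. In progenitor-like cells Cacna2d1 ranged from -0.31 to 0.061 and Mrln from -0.18 to 0.19. In cycling myogenic cells Ryr1 ranged from -0.32 to 0.25 and Atp2a2 from -0.071 to 0.14. In myoblast-like cells Cacna2d1 ranged from -0.26 to 0.30, Atp2a1 from -0.061 to 0.18 and Sln from -0.21 to 0.69. In myotube-like cells Cacna2d1 ranged from -1.34 to 0.34, Ryr1 from -0.29 to 0.79, Ryr3 from -2.13 to 2.29, Atp2a2 from -0.56 to 0.51 and Mrln from -0.19 to 0.56. In FAP-like cells Cacna2d1 ranged from -0.14 to 0.022 and Atp2a2 from -0.034 to 0.042. In smooth muscle or pericyte-like cells Atp2a2 ranged from -0.043 to 0.046 and Casq2 from -0.032 to 0.59. In endothelial-like cells Atp2a2 ranged from -0.064 to 0.24. In glial-like cells Atp2a2 ranged from -0.033 to 0.0010. In tenocyte-like cells Cacna2d1 ranged from -0.21 to 0.067. In chondrocyte-like cells Cacna2d1 ranged from -0.068 to 0.38 and Atp2a2 from -0.031 to 0.16. In mast-like cells Atp2a2 ranged from -0.23 to 0.37.

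The added alternative, chosen after seeing the data, left Sln in FAP-like cells at 13.5 CPM in place of 24.6 CPM without the 628 cells of the cluster led by Myoz2, Ckm and Acta1. With 2 libraries a genotype, 1 of them of another fetal sex by its transcripts, and 79 myotube-like cells, changes of the size of the standard errors given could not be detected. Of 409 alternative values of the 51 levels of at least 20 CPM, 32 had moved from the main level by more than 1 SD. With the looser cell filter the myotube-like cells numbered 226 in place of 79. The UMIs behind a level also depended on the size of the group. The 79 myotube-like cells held 767441 UMIs of all genes, so levels above 20 CPM could rest on few there. Ryr3 at 4.30 CPM in FAP-like cells rested on 799.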
